A study of Homo sapiens with 8 samples.

Results

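DS8 is a subline of the lung adenocarcinoma cell line PC9, and its bulk RNA-seq library was compared row by row with those of 4 sister sublines, DS3, DS6, DS7 and DS9. The members are the 4529 rows of the count table, of 22664 rows with a gene symbol, that had a mean of at least 50 counts over the 8 libraries of the study and that could be placed at a single position of the genome from the gene they are named for. They were ordered along the chromosomes, and the value of DS8 in each row was set against the median and the range of the other 4 sublines. The comparison asks where along the genome the transcript levels of DS8 departed from those of its sisters.

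The 5 sublines were each grown from a single cell of PC9-VU after its nuclei had been labelled. Each is represented by 1 library of untreated cells, which averages over the cells of the population. From the growth of single colonies under drug, the authors propose that DS8 holds more than 1 cell state. All of them, like the other 3 populations, carry a deletion in exon 19 of EGFR, the receptor on whose signalling PC9 cells depend. Like PC9-VU, they have no T790M mutation, the change known for resistance to early EGFR inhibitors. The other libraries come from PC9-VU itself, from PC9-MGH, a version of the line obtained separately and likewise without T790M, and from PC9-BR1, which was derived from PC9-VU under rising doses of the EGFR inhibitor afatinib and carries T790M. RNA was depleted of ribosomal RNA and enriched for polyadenylated transcripts. Since no population was sequenced more than once, no p-value is given, and every difference describes these libraries, including whatever their cultures and preparations contributed.

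Cancer cell lines commonly gain and lose whole chromosomes, chromosome arms or shorter segments, and single cells of 1 line can differ in these changes. The RNA level of most genes tends to follow the number of DNA copies, although many genes are buffered or controlled in other ways. A changed segment can therefore appear in RNA data as a run of neighbouring genes that are shifted in the same direction by a similar amount. No DNA was measured in these libraries, so copy number was not tested here, and each difference is one of RNA level.

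The named rows held 2849724 counts in DS8, and between 2902156 and 3338900 in the other 4 sublines, so DS8 was the shallowest of the 5. Every pair of libraries differed by at least 7.65 times the chi-square expected from sampling noise, so no pair differed by sampling noise alone. This value does not show how far repeat preparations of the same cells would differ. The name of a row could not be taken as the source of its reads, since 55 of the 81 rows named for ribosomal protein genes, among the most highly expressed genes of any cell, had a mean of under 10 counts, and 23 of the 350 rows named for olfactory receptor genes, which are normally silent outside the nose, had at least 10. Rows can thus be displaced from the gene whose reads they hold. No gene is read from a row here, and a position is that of the gene a row is named for. The error of these positions was not measured, nor was it tested whether it stays within a chromosome. The limits of all segments below carry this error.

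Values are log2 CPM, that is, counts scaled to a common library total, with the TMM factors of edgeR, which correct the total for the composition of the library, and a prior count of 2. A difference is the log2 CPM of DS8 minus the median of DS3, DS6, DS7 and DS9 in the same row, so that a difference of 1 is a doubling. A row was counted as outside the range where DS8 exceeded the highest of the 4 or was under the lowest. At 50 counts, counting error alone gives the value of 1 library a standard deviation of 0.20 on this scale. A difference also carries the counting error of the median of the 4. The median row had a mean of 238.5 counts.

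Most rows of DS8 were close to those of its sisters. The median size of the difference was 0.25, and 77.3% of the rows lay within 0.5 of the median of the 4. DS8 was above all 4 in 1166 rows (25.7% of the rows tested) and below all 4 in 1140 rows (25.2%), together 50.9%. Taken in the same way against the remaining 4, DS3 was the highest or lowest in 43.0% of the rows, DS7 in 39.5%, DS6 in 35.4% and DS9 in 31.1%. DS8 was thus most often the extreme library, with rows above and rows below in nearly equal number.

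At larger distances DS8 stood further from the others. It was at least 2-fold above the highest of the 4 in 51 rows (1.13%) and at least 2-fold below the lowest in 49 rows (1.08%), together 2.21%. The same counts were 15 and 14 for DS3, 6 and 11 for DS6, 3 and 12 for DS7, and 6 and 7 for DS9. DS8 was outside the range about as often at low as at high counts. Of the 1133 rows with the fewest counts, with means of up to 109.8, 50.6% were outside, and of the 1132 with the most, with means of at least 584.8, 51.2% were. The median size of the difference was 0.31 in the former and 0.20 in the latter.

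**Figure D1:**
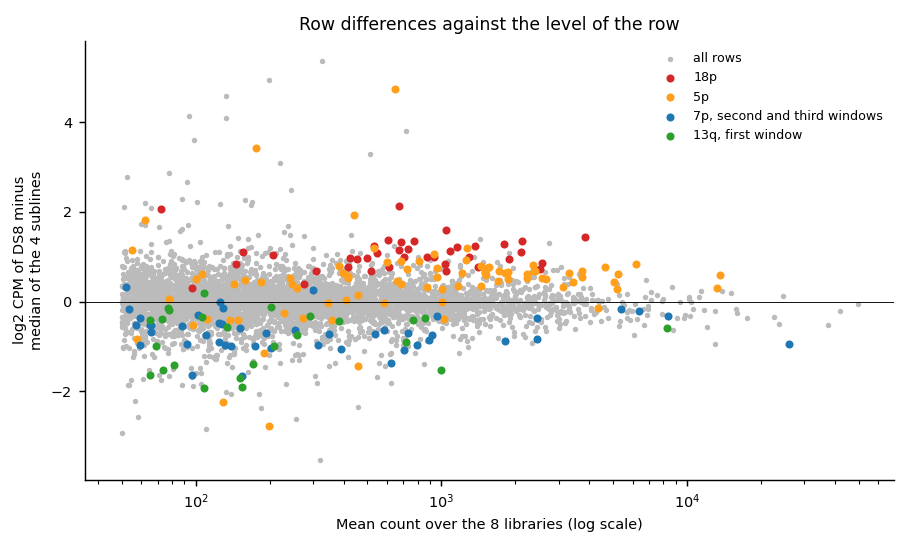
Difference of each row of DS8 from the median of the 4 sublines (log2, vertical) against its mean count over the 8 libraries (horizontal, log scale), with 1 point per row and the rows of 18p, 5p, 2 windows of 7p and 1 window of 13q in colour. The rows of 18p lie around 1 at low and high counts alike, while most other rows lie within 0.5 of 0.

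The differences were ordered along the genome. The rank correlation (Spearman's rho) between the differences of neighbouring rows, over 4488 pairs on the same arm, was 0.35, and 0.12 once the median of the surrounding window had been subtracted. These pairs share the same libraries, so the values are descriptions. A window is a stretch of 25 consecutive rows within a chromosome arm, which spanned 9.64 Mb at the median, and 177 windows covered the genome. The window medians, which number 3.91% of the rows, held 22.8% of the squared differences, and medians of whole arms held 16.9%. Window medians thus held the smaller part of the squared differences. The rest also includes counting error and was not divided further. The share held by window medians was 17.3% over rows of at least 10 counts and 29.2% over rows of at least 200.

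An arm was counted as apart where the median of DS8 lay at least 0.2 beyond the range of the medians of the other 4 sublines, with at least 20 rows. Of 40 arms, 4 were higher by this measure (10.0%), namely 4p, 5p, 6q and 18p, and 1 was lower (2.5%), 7p, together 12.5%. On 22 of the 40 arms the median of DS8 lay within 0.1 of that of the 4. On the remaining arms that were not apart, DS8 lay further from the median of the 4 but within, or less than 0.2 beyond, their range. These include 7q, at 0.41, and 16q, at -0.35.

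**Figure D2:**
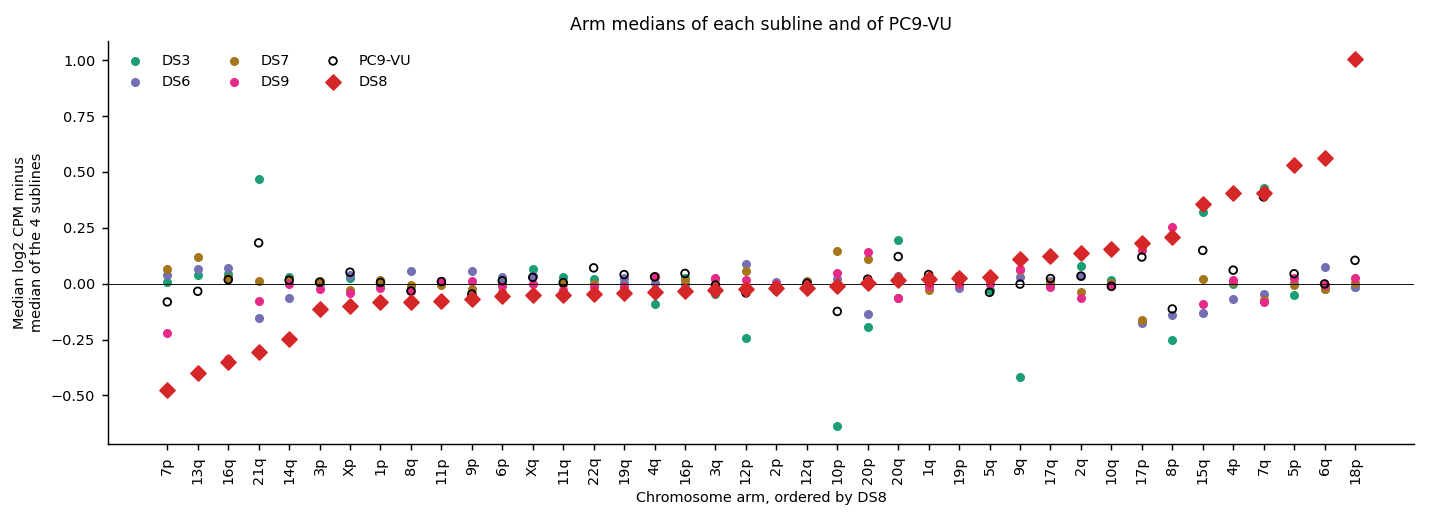
Median difference of each chromosome arm (log2 CPM minus the median of the 4 sublines) for DS8, for DS3, DS6, DS7 and DS9, and for PC9-VU, with arms ordered by DS8. DS8 stands above every other point on 18p, 6q, 5p and 4p and below every other point on 7p.

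The short arm of chromosome 18 had the largest difference. The median of its 39 rows was 1.01 in DS8, against -0.01 in DS3, -0.02 in DS6, 0.00 in DS7 and 0.03 in DS9, and it was 0.10 in PC9-VU. This is a 2.01-fold higher level in DS8, and the other 4 lay close to each other. DS8 was above all 4 in 38 of the 39 rows and inside their range in the remaining one, and 14 rows were at least 2-fold above the highest. The middle 50% of the rows lay between 0.84 and 1.25.

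The shift on 18p did not depend on a few strong rows. Rows with more counts had a median of 1.06 and those with fewer 0.97, and the strongest row held 10.1% of the counts of the arm. In sum, 18p held 2.25% of the counts of DS8 (exact binomial interval 2.24% to 2.27%, which covers counting error only), against 1.02% in DS3, 1.05% in DS6, 1.03% in DS7, 1.09% in DS9 and 1.12% in PC9-VU. The share of DS8 was thus about double that of the other 4 sublines and of PC9-VU. Along the arm, 26 consecutive rows from 0.158 to 11.85 Mb were all above the 4, followed after 1 row by 12 more that reached 13.76 Mb. These runs were picked for this direction, and the first summed to 17850 CPM in DS8, and to 8116 in DS3, 8209 in DS6, 8101 in DS7, 8158 in DS9 and 8614 in PC9-VU.

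Across the centromere the shift was not seen. The long arm of chromosome 18 had only 15 rows with enough counts, too few for the rule on arms. Their median was 0.09 in DS8, between -0.07 and 0.02 in the other 4 and 0.07 in PC9-VU, so DS8 lay close to the parent population there. Of these rows, 7 were above the 4 and 5 below.

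On the short arm of chromosome 5 the median of 84 rows was 0.53 in DS8, against -0.05 in DS3 and 0.02 or less in DS6, DS7 and DS9, and 0.04 in PC9-VU. DS8 was above all 4 in 61 rows and below all 4 in 9. The 3 windows of the arm, from 0.20 to 44.82 Mb, had medians of 0.53, 0.54 and 0.55. In windows of 10 rows the medians were less even, between 0.37 and 0.74, and all lay above those of the other 4. The arm held 6.05% of the counts of DS8, and 3.95% in DS3, 4.23% in DS6, 4.24% in DS7, 4.40% in DS9 and 4.26% in PC9-VU. The level of the long arm was not shifted, with a median of 0.03 over 103 rows.

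The long arm of chromosome 6 and the short arm of chromosome 4 showed shifts of similar size. On 6q the median of 42 rows was 0.56 in DS8 and between -0.02 and 0.07 in the other 4. DS8 was above all 4 in 34 of these rows and below in 2, and the median of the 203 rows of 6p was -0.05. On 4p the median of 100 rows was 0.40 in DS8 and between -0.07 and 0.02 in the other 4, with 63 rows above all 4 and 8 below, and the median of the 34 rows of 4q was -0.04. Like 18p and 5p, these shifts thus did not extend over the other arm.

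The shift on 4p weakened within the arm. The first 3 windows, from 0.50 to 38.86 Mb, had medians of 0.49, 0.54 and 0.48 in DS8. The fourth had 0.15, against 0.06 in DS3, 0.02 in DS7, 0.09 in DS9 and 0.09 in PC9-VU, while DS6 stood at -0.66. In windows of 10 rows, a size chosen after the data were seen, the median of DS8 was 0.49 from 17.84 to 27.03 Mb and -0.03 from 30.72 to 39.49 Mb, where it was above the 4 in 1 row of 10 and DS6 stood at -0.75. The shift of DS8 was thus not seen in the latter stretch. From 39.55 to 42.09 Mb the median of DS8 was 0.31, against 0.16 in DS7, the next highest, with 5 of 10 rows above all 4. From 44.68 to 48.91 Mb it was 0.13. The first 10 rows of the arm, up to 1.71 Mb, had a median of 0.24. DS6 had the lowest median of the 5 sublines from 30.72 Mb to the last row of the arm.

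**Figure D3:**
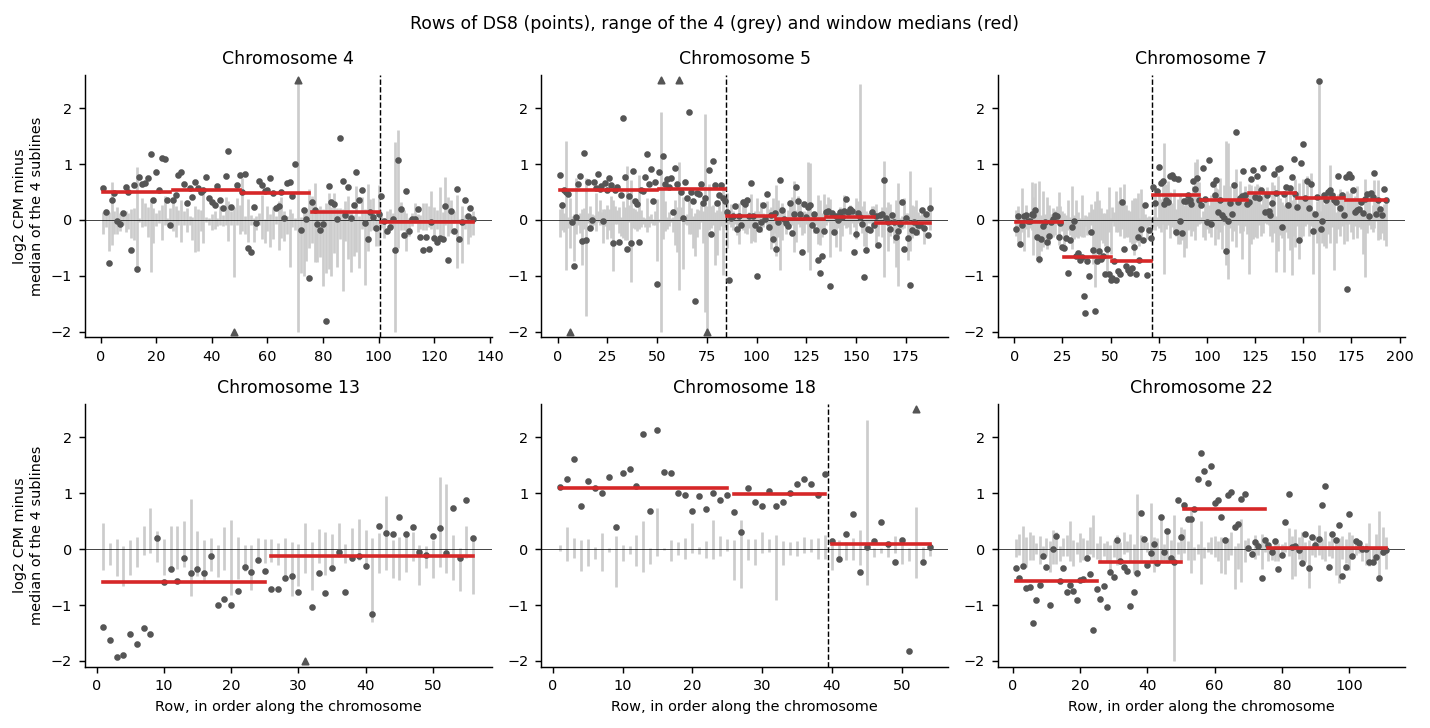
Differences of single rows of DS8 (grey points; triangles mark rows drawn at the limit of the axis) in order along chromosomes 4, 5, 7, 13, 18 and 22, with the range of the 4 sublines in each row (light bars), window medians (red lines) and the centromere (dashed line, where both arms hold rows). On chromosome 18 the red lines drop from 0.98 on the short arm to 0.09 on the long arm, and on chromosome 22 they run from -0.57 through 0.72 to 0.02.

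The short arm of chromosome 7 was lower in DS8. The median of its 71 rows was -0.48, against 0.01 in DS3, 0.04 in DS6, 0.07 in DS7 and -0.22 in DS9, and it was -0.08 in PC9-VU. DS8 was below all 4 in 38 rows and above in 2. DS9 was the next lowest, so the gap of DS8 to the range of the 4 was 0.26, and this call was lost without DS3, DS6 or DS7 among the 4, where the median of DS8 was -0.43, -0.42 and -0.39. It was also lost with libraries thinned to 1 total and over rows of at least 200 counts. The arm held 3.49% of the counts of DS8, 3.66% in DS9, 3.96% in PC9-VU and between 4.42% and 4.53% in DS3, DS6 and DS7, but a single row held 38.5% of this sum.

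Within 7p the difference began after the first window. From the end of the arm to 6.62 Mb the median was -0.05 in DS8, -0.30 in DS9 and between 0.00 and 0.07 in the other 3. From 6.69 Mb to the last row at 56.05 Mb, the 2 remaining windows had medians of -0.67 and -0.74 in DS8, against -0.28 and -0.16 in DS9. DS8 was below all 4 in 21 of the 25 rows of the first of these windows and in 16 of the 21 rows of the second. In the first window DS9 was therefore the lowest of the 5 sublines, and in the others DS8 was. The annotated position of EGFR, chromosome 7 from 55019017 to 55211628 (hg38), falls in the last window, but no row could be read as its transcript. In that window, 10 rows from 38.69 to 44.77 Mb had a median of -0.90 in DS8 and -0.18 in DS9. The 11 rows from 44.80 to 56.05 Mb, which span this position, had -0.36 in DS8 and -0.14 in DS9.

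Windows located further shifts on arms that were not apart as a whole. A window was apart where DS8 lay at least 0.3 beyond the range of the 4. Of 177 windows, 13 were higher (7.34%) and 4 lower (2.26%), together 9.6%, and 90 lay within 0.1 of the median of the 4. The arms described above held 12 of these 17 windows, 10 higher and 2 lower. In the 13 higher windows, DS8 was above all 4 in 245 of 318 rows, against 25.7% over all rows. In the 4 lower windows it was below all 4 in 73 of 96 rows, against 25.2%. The windows were chosen by these same values, so these counts describe how evenly a shift was spread over its rows and are no separate evidence of it.

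**Figure D4:**
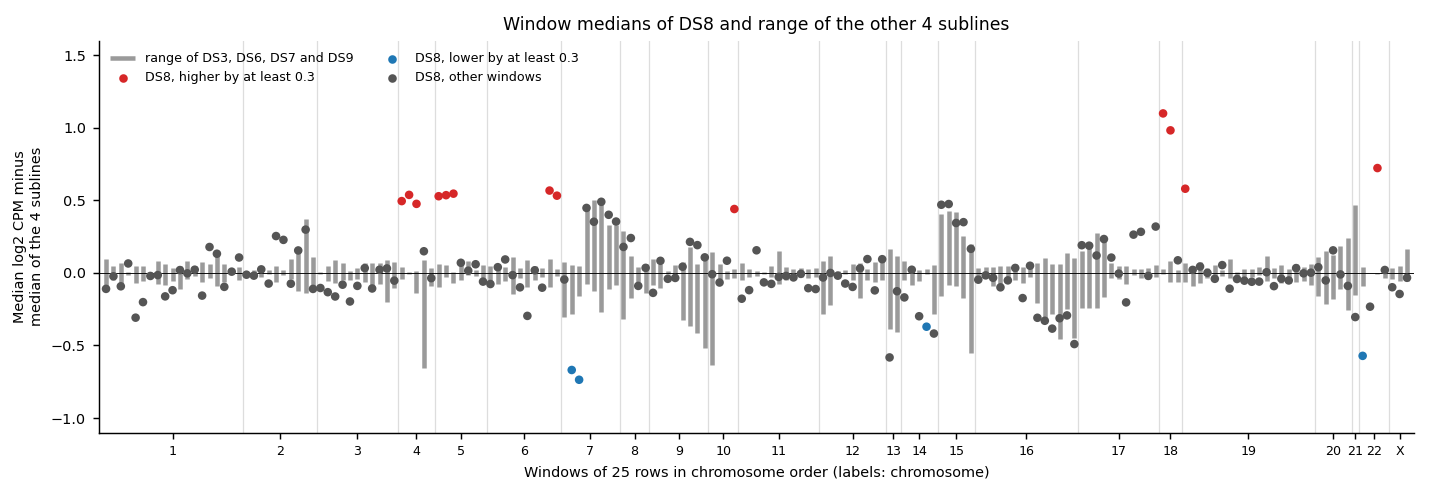
Median difference of each of the 177 windows of DS8 (points, log2) in chromosome order, with the range of the medians of the other 4 sublines (grey bars). The 13 red points lie at least 0.3 above the bars and the 4 blue points at least 0.3 below, and neighbouring coloured points form blocks on 4p, 5p, 6q, 7p and 18p.

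Chromosome 22 held a higher and a lower segment on the same arm. The median over the 111 rows of 22q was -0.05. The first window, from 17.08 to 23.70 Mb, had a median of -0.57 in DS8, 0.04 in DS3, 0.04 in DS6, -0.09 in DS7 and -0.02 in DS9. DS8 was below all 4 in 22 of its 25 rows and above in none. The third window, from 37.07 to 40.82 Mb, had a median of 0.72 in DS8, and between -0.01 and 0.00 in the other 4. PC9-VU stood at 0.17 in it, between its sublines and DS8.

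The higher segment of 22q was short. In windows of 10 rows the median of DS8 was 0.02 from 30.69 to 35.43 Mb, 1.01 from 37.07 to 37.94 Mb, 0.73 from 38.08 to 39.97 Mb and 0.01 from 39.99 to 41.23 Mb. Within it 9 consecutive rows from 37.49 to 38.32 Mb, picked because each was above all 4, summed to 3455 CPM in DS8 (exact Poisson interval 3387 to 3524). The same rows summed to 1657 CPM in DS3, 1744 in DS6, 1715 in DS7, 1681 in DS9 and 1909 in PC9-VU. These sums describe the size of a difference whose direction the choice of rows fixed.

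Single shifted windows were also found on 10q, 14q and 19p. On 19p the first window, from 0.28 to 1.24 Mb, had a median of 0.58 in DS8 and between -0.06 and 0.07 in the other 4, and DS8 was above all 4 in 21 of its 25 rows and below in none. The next window of 19p had a median of 0.02. On 10q the third and last window, from 99.78 to 130.20 Mb, had a median of 0.44, against -0.03 to 0.03 in the other 4. Its first 10 rows, up to 102.4 Mb, had a median of 0.07, and the remaining rows, from 112.1 Mb, had medians of 0.64 and 0.55 in stretches of 10 and 8 rows. Between 112.1 and 130.2 Mb DS8 was above all 4 in 17 of 18 rows.

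Chromosome 14 was lower over several windows, of which 1 met the rule. The third, the fourth and the fifth windows of 14q, from 60.98 to 105.0 Mb, had medians of -0.30, -0.37 and -0.42 in DS8. In the fourth the other 4 lay between -0.01 and 0.03. In the fifth DS6 was also low, at -0.28, and DS8 was below all 4 in 18 of 28 rows. The lowering was not even in windows of 10 rows. The median of DS8 was -0.71 from 66.51 to 73.12 Mb but 0.04 from 73.24 to 75.01 Mb. From 102.4 to 104.7 Mb it was -0.20, above DS6 at -0.27. The median over the 128 rows of the arm was -0.25 in DS8 and between -0.06 and 0.03 in the others, a gap of 0.18 that fell just short of the rule for arms. Just inside the rule, the gap of 7p was 0.26.

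Chromosome 13 held a strongly lowered stretch that was seen in windows of 10 rows. Its first window of 25 rows had a median of -0.58 in DS8 and -0.39 in DS9 and was not apart, whereas those of 7p reached -0.74. On 13q, DS8 and DS9 had nearly the same arm median, -0.40 and -0.39, while DS3, DS6 and DS7 lay between 0.04 and 0.12, so the arm as a whole did not set DS8 apart. The first 10 rows, from 19.17 to 26.69 Mb, however, had a median of -1.52 in DS8 and -0.34 in DS9, against -0.04 in DS3, 0.04 in DS6 and 0.20 in DS7. DS8 was below all 4 in 9 of these 10 rows. From 29.87 to 52.13 Mb the medians of DS8, -0.42 and -0.50, were close to those of DS9, both -0.44.

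The rows of the lowered segment of 13q had few counts. A run of 8 rows, up to 23.89 Mb and picked because DS8 was below all 4 in each, summed to 213.4 CPM in DS8 (exact Poisson interval 196.8 to 231.1), 652.6 in DS3, 642.5 in DS6, 755.9 in DS7, 485.2 in DS9 and 608.4 in PC9-VU. That DS8 is the lowest follows from the choice of the rows, and DS9 was the next lowest. The row with the most counts among them, at 20.57 to 20.69 Mb, had 357 counts in DS8, against 1173 in DS3, 1033 in DS6, 1158 in DS7 and 893 in DS9. At the other end of the arm, from 109.8 to 113.7 Mb, DS8 stood at 0.27 and 0.29 and DS9 at -0.47 and -0.49, so the resemblance of the arm medians did not hold along its length.

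Rows at least 2-fold beyond the range fell partly in these segments. Of the 51 rows above, 28 lay in the 13 higher windows, which held 318 of the 4529 rows, and 14 of them were on 18p. Of the 49 rows below, 7 lay in the 4 lower windows, which held 96 of the 4529 rows. The 56 rows of 13q held 9 of the 49, and the 240 rows of 19p held 6. The remaining rows were scattered, and 22 arms held at least 1 row above and 21 at least 1 row below. After the median of its own window had been subtracted from each row, 28 rows remained at least 2-fold above and 36 at least 2-fold below, and 43.7% of all rows remained outside the range. In the 160 windows that were not apart, 47.7% of the rows were outside the range. Over all rows, the other sublines were the extreme library in 31.1% (DS9) to 43.0% (DS3). Most of the rows in which DS8 was the extreme library were not in shifted windows, but these windows held only 9.14% of all rows.

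A few strong single rows stood outside any shifted window. On 9q, 1 row at 101.35 to 101.39 Mb had 3686 counts in DS8, or 1294 CPM, against 81.2 CPM in DS3, 89.6 in DS6, 112.8 in DS7, 95.4 in DS9 and 107.6 in PC9-VU. Also on 9q, 4 neighbouring rows between 127.58 and 127.78 Mb were at least 2-fold above the 4. They had 347, 151, 229 and 225 counts in DS8. The strongest of them stood at 122.5 CPM in DS8, between 21.96 and 36.5 in the other 4, and at 70.5 in PC9-VU. In all 4 rows PC9-VU lay between its 4 sublines and DS8.

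On 11 of the 40 arms DS3, DS6, DS7 and DS9 differed among themselves by at least 0.3, and on most of these arms DS8 lay within their range or close to it. The exception was 21q, where DS8 was 0.15 below the lowest of the 4. Here each subline is given as its median difference from PC9-VU, so that the values of an arm share that library. On 7q, DS8 stood at 0.01 and DS3 at 0.03, while DS6 was at -0.42, DS7 at -0.51 and DS9 at -0.49. On 15q, DS8 stood at 0.20 and DS3 at 0.22, while the other 3 lay between -0.32 and -0.16. On these arms DS8 was thus close to DS3, and on 7q both were close to the parent population.

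On other arms DS8 was close to DS9. On 16q, DS8 was at -0.39 and DS9 at -0.40, while DS3, DS6 and DS7 were between 0.03 and 0.07. On 17p, DS3, DS8 and DS9 lay between 0.02 and 0.08, while DS6 was at -0.31 and DS7 at -0.30. On 21q, DS8 was the lowest at -0.49, followed by DS6 at -0.37 and DS9 at -0.29, and DS3 was the highest at 0.31. No single sister was the nearest to DS8 on all of these arms.

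**Figure D5:**
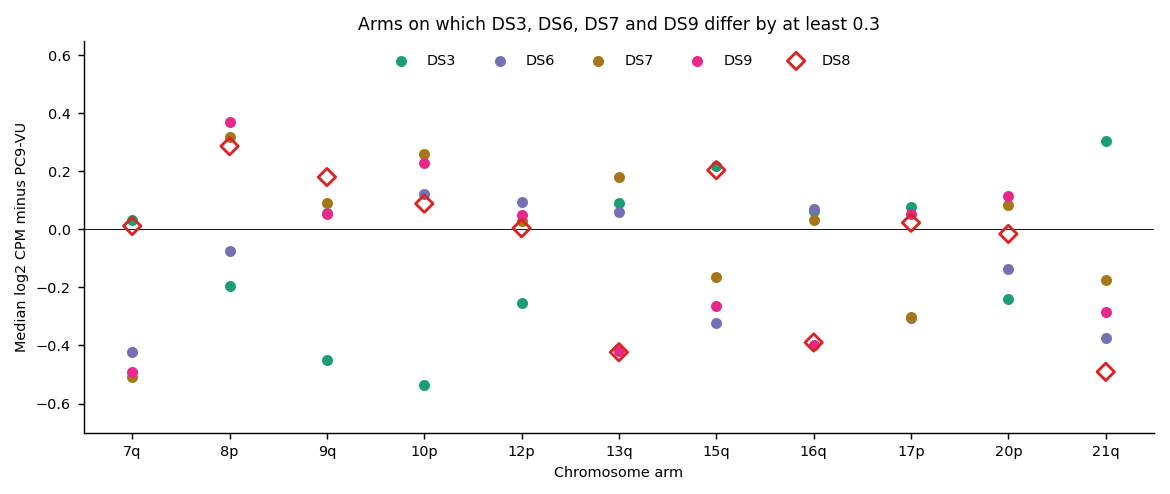
Median log2 CPM minus PC9-VU on the 11 arms on which DS3, DS6, DS7 and DS9 (filled points) differed from each other by at least 0.3, with DS8 as an open diamond. The diamond lies beside DS3 on 7q and 15q, beside DS9 on 13q and 16q, and below all 4 on 21q.

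Against the parent population, DS8 was also the subline with the most departures. The median size of its row differences from PC9-VU was 0.24, and between 0.17 and 0.19 in the other 4. It had 199 rows at least 2-fold from PC9-VU, against 66 in DS3, 89 in DS6, 87 in DS7 and 79 in DS9. Window medians held 21.05% of the squared differences from PC9-VU in DS8. They held 9.65% in DS3, 15.69% in DS6, 12.6% in DS7 and 15.39% in DS9. Order along the genome was thus not particular to DS8, although all 5 values share the PC9-VU library. Windows at least 0.3 above PC9-VU numbered 14 in DS8 and between 0 and 2 in the others. Windows at least 0.3 below numbered 12 in DS8, and between 5 and 13 in the others. DS8 was thus set apart from its sisters by higher windows, and not by the number of lower ones.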

How the data were processed

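Bulk RNA-seq libraries of 8 PC9 populations were used, with 1 library each. The authors aligned the reads with STAR (version 2.5.2b) to hg38, counted them with featureCounts (version 1.6.4), and deposited the raw counts, without normalization, as a single table whose rows carry gene symbols. Strandedness is not given in the sources used here. Of 30988 rows, 8324 had no symbol. They took up 4.23% to 4.41% of each library and entered neither totals nor comparisons.

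The counts were converted to log2 CPM by edgeR (version 4.0.16) in R (version 4.3.3), using TMM factors over all 8 libraries and a prior count of 2. Of 4604 named rows averaging 50 counts or more, 4529 were placed by symbol at 1 position of chromosomes 1 to 22 or X in GENCODE release 44 (hg38). Windows held 25 rows, and a last window of under 13 rows was joined to the one before. No difference between populations was tested, since each has 1 library, and the critical value of Dixon's test served below only to flag arms. Intervals at 95% are exact and cover counting error only, since PCR copies of a read are not independent molecules.

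The alternatives used DESeq2 (version 1.42.0), statsmodels (version 0.14.6) for a lowess fit to GC content, and Python (version 3.11.15). The steps were checked on simulated counts with known shifts, which gives no error rate for these libraries. No gene is named from a row, and no gene list was used. The members, thresholds and comparisons were chosen with earlier results of these data known.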

Additional observations from a re-analysis of the deposited data

Results flagged for a closer look

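For each of 40 arms, the 5 sublines' medians of log2 CPM minus PC9-VU were examined for 1 library whose gap to its nearest neighbour, divided by the range of the 5, passed the 95% critical value of Dixon's test, 0.71. Chance would flag about 1 in 20 independent groups, or 2 of 40, and 8 arms were flagged. The arms come from the same 5 libraries and are not independent, so the 8 cannot be set against that expectation. DS8 was that library on 4 arms, at 0.98 on 18p, 0.50 on 6q, 0.49 on 5p and -0.12 on 3p. Of these, 18p, 6q and 5p had already been called apart from the same libraries, so their flags are no separate evidence. DS3 was that library on 3 arms, at -0.54 on 10p, -0.45 on 9q and -0.25 on 12p. DS6 was that library on 5q, at 0.0838. The values of an arm share the PC9-VU library. The causes of these differences were not tested.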

How the results depend on the processing

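No paired analysis was possible because each population has a single library, and the replicate number 1 that all share names no culture or batch. In the setting reported, 4 arms were higher and 1 lower, 13 windows higher and 4 lower, 51 rows at least 2-fold above and 49 below, 50.9% of rows outside the range, and 22.8% of the squares held by windows. A count was taken as moved past 1.5 times, and a percentage past its exact binomial interval over the 4529 rows. An arm median was taken as moved past the 95% rank interval of the median over its rows. For the percentages the interval is a cut-off and measures no spread. Neighbouring rows are correlated, and the share of squares is not a count of rows. DESeq2 size factors and a prior count of 0.5 moved none of these.

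The arms 4p, 5p and 18p were higher under every alternative that gives a range, as was 6q, except with rows of at least 200 counts, where it had under 20 rows. The call of 7p was lost with rows of at least 200 counts, with libraries thinned to the smallest total and with the mean of the 4 in place of their median, each of which left 0 lower arms. Lower arms numbered 2 with the 5 sublines alone, with rows of at least 10 counts and after GC correction, 3 at a gap of 0.1 and 0 at a gap of 0.3.

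Rows of at least 10 counts gave 8 lower windows, 87 rows above and 109 below, and a share of 17.3%. Rows of at least 200 counts gave 8 higher and 2 lower windows, 24 rows above and 13 below, and a share of 29.2%. Against PC9-VU alone the share was 21.05%. Windows of 15 rows gave 23 higher, 10 lower and 24.8%, windows of 50 rows 6, 2 and 19.7%, and windows of 10 rows, added after the data were seen, 31 higher and 16 lower. Shifting the windows by 12 rows gave 7 lower. A gap of 0.2 gave 8 lower windows and one of 0.5 gave 7 higher and 1 lower. Rows at least 1.5-fold beyond the range numbered 152 above and 147 below, and 4-fold 12 and 3.

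Leaving out 1 of the 4 sublines gave 4 to 6 higher and 1 to 4 lower arms. It gave 13 to 23 higher and 5 to 11 lower windows, and a share of 20.6% to 22.9%. Rows outside the range then made up 56.7% to 61.4%. A row outside the range of the 4 stays outside when 1 of them is dropped, so this rise from 50.9% was fixed in direction. Without DS3, 7q and 15q were also higher, with 6 higher arms and 23 higher windows. Without DS9, 13q, 14q and 16q were also lower, with 4 lower arms and 11 lower windows. Lower arms numbered 2 without DS6 and without DS7, 14q and 21q in each, and without DS3 14q was the 1 lower arm, so 7p was called only while DS3, DS6 and DS7 were all in the range. All 17 windows were kept in each of these 4 settings, an outcome that a range over fewer sublines favours. No arm median given for 4p, 5p, 6q, 7p or 18p changed sign under any alternative. The causes of the changes were not tested. The depth, with a counting error of 0.20 in 1 library for a row of 50 counts, limits single rows more than medians.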

Other observations

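PC9-MGH and PC9-BR1 did not enter the range of the 4 sublines, and their values in the segments of DS8 are given on the same scale, as differences from the row median of DS3, DS6, DS7 and DS9. All libraries thus share these 4 as their reference. On 18p the median was 0.56 in PC9-MGH and 0.03 in PC9-BR1, against 1.01 in DS8. On 6q it was 0.80 in PC9-MGH and -0.03 in PC9-BR1, against 0.56 in DS8. On 4p it was 0.13 in PC9-MGH and 0.05 in PC9-BR1, against 0.40 in DS8. On 5p it was 0.30 in PC9-MGH and -0.26 in PC9-BR1, and on 7p 0.11 and -0.02. In the first window of 22q PC9-MGH was at -0.64 and PC9-BR1 at 0.09, and in the third at 0.74 and -0.06, beside -0.57 and 0.72 in DS8. In the first window of 19p PC9-MGH was at 0.51 and PC9-BR1 at -0.01, beside 0.58 in DS8. In the last window of 10q, where DS8 was at 0.44, PC9-MGH was at -0.22 and PC9-BR1 at 0.03. PC9-MGH thus stood near DS8 in both segments of 22q and at the end of 19p, and above DS8 on 6q. It lay between 0 and DS8 on 4p, 5p and 18p, and on the other side of 0 from DS8 on 7p and 10q. These segments were looked up after their values in DS8 had been seen.

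Runs of consecutive rows beyond the same end of the range were also found outside the segments called, some as long as runs within them. On 1p, 14 rows from 31.63 to 32.87 Mb were all below the 4, with a median of -0.45, and summed to 1846 CPM in DS8, 2748 in DS3, 2488 in DS6, 2644 in DS7 and 2611 in DS9. On 17q, 12 rows from 49.58 to 56.87 Mb were all above, with a median of 0.48, and summed to 4494 CPM in DS8 and between 3062 and 3297 in the other 4. On 11p, 7 rows from 0.13 to 0.33 Mb were all below, with a median of -0.93, and summed to 1573 CPM in DS8 and between 2213 and 3295 in the other 4. The runs were picked for their direction, so the sums describe only its size. In all, 37 runs of at least 6 rows were found, 24 above and 13 below. With 25.7% of all rows above and 25.2% below, single runs of this length were not set against chance.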
